A study of Mus musculus with 27 samples.

Results

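The genes described here code for the subunits of the 5 complexes of oxidative phosphorylation. They were taken by symbol alone: protein-coding rows named mt-Nd, mt-Co, mt-Cytb or mt-Atp, or named for the nuclear Nduf, Sdh, Uqcr, Cyc1, Cox4 to Cox8 and Atp5 series. This gave 99 of 27316 rows in the table of embryonic and adult intestine, 96 of 23597 rows in the organoid table and 97 of 27179 rows in the tumour table. Of the 99 genes, 86 are nuclear and 13 lie on the mitochondrial chromosome. Complex I was represented by 35 nuclear and 7 mitochondrial genes, complex II by 4 nuclear genes, complex III by 9 nuclear genes and 1 mitochondrial gene, complex IV by 19 nuclear and 3 mitochondrial genes, and complex V by 15 nuclear and 2 mitochondrial genes. Ndufa4, named for complex I, was counted with complex IV, where the protein is found. Of the 19 nuclear genes of complex IV, 7 are paralogues of tissue-restricted or inducible expression (Cox4i2, Cox6a2, Cox6b2, Cox7a1, Cox7b2, Cox8b and Ndufa4l2), and the other 12 are expressed in most tissues. The symbols also caught 4 genes that are not subunits (Atp5s, Atp5sl, Cox4nb and Atp5l-ps1), which were kept apart from the complexes. Cox6a2, Cox7b2 and Cox8b were not in the organoid table, and Cox4nb and Atp5l-ps1 were not in the tumour table.

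Complexes I to IV pass electrons from NADH and succinate to oxygen. Complexes I, III and IV pump protons across the inner mitochondrial membrane, and complex V uses the proton gradient to make ATP. All complexes except complex II mix subunits made in the cytosol from nuclear genes with a few made inside the mitochondrion from its own DNA. In the gut, absorptive enterocytes are rich in mitochondria, and the nuclear subunit genes are known targets of the transcription factors NRF1, GABPA, YY1 and ESRRA and of the coactivator PGC-1α (Ppargc1a).

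The series holds 27 mouse libraries in 9 groups of 3, made to ask what the TFIID subunit TAF4 does in the intestine. The embryonic samples were whole intestine at E17.5, from Taf4lox/lox::VilCre embryos (embryo KO) and Taf4lox/lox littermates (embryo WT), and the adult samples were ileum at 8 weeks, from Taf4lox/lox::VilCreERT2 mice after Tamoxifen (adult KO) and Taf4lox/lox mice (adult WT), on a C57Bl6/129sv background. The labels give the adult WT mice sunflower oil, while the methods give them Tamoxifen as well. The Villin promoter drives Cre in the gut epithelium only, so stroma, muscle and immune cells of these samples keep Taf4. Organoids came from crypts of the ileum of mice aged 4 months. Those of the 4-OHT and EPZ groups were Taf4lox/lox::VilCreERT2 by the methods, and in them 4-hydroxytamoxifen switches on the Cre that inactivates Taf4. They were treated with 1 µM 4-hydroxytamoxifen for 3 days (4-OHT), with 4-OHT and 1 µM of the Ezh2 inhibitor EPZ-6438 (EPZ), or kept as control. The label of 4-OHT replicate 1 gives neither dose nor days. The EPZ cultures were grown for 11 days by the labels and to a later day by the methods. The control wells had ethanol by the labels and were 4-OHT-treated Taf4lox/lox organoids by the methods, and replicates were wells. The tumours were ileal tumours of mice carrying a deleted Apc exon 14, with (Taf4KO-APC) or without (APC) inactivation of Taf4, induced by Tamoxifen at 6 to 8 weeks by the labels on a mixed 129SV/C57Bl/6 background. By the methods the genotypes were Taf4lox/lox::VilCreERT2::ApcΔ14/+ and ApcΔ14/+. The methods also give a later age at Tamoxifen, and controls that received it as well.

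For intestine and organoids each group was deposited as 1 mean of normalized counts, that is, reads per gene scaled for depth between libraries, so no spread, error or test over animals or wells could be given. In these groups "lower" and "higher" describe a ratio of means past 1.5-fold in genes with a mean of at least 10 in either group, and log2 values are log2 of the ratio after adding 1. Group totals lay between 11937454 in embryo KO and 16583166 in adult WT. The 6 tumour libraries carried a value each in FPKM (fragments scaled by gene length and by depth), from libraries whose depth, read from the steps between FPKM values, was 26170152 to 28187047 fragments in Taf4KO-APC and 23017327 to 39237670 fragments in APC. The third Taf4KO-APC library names the animals of both others in its label. Its log2 values correlated at 0.985 and 0.984 with libraries 1 and 2, against 0.957 between libraries 1 and 2, and lay between them in 63.2% of 12119 genes, against 21.99 to 39.1% for each APC library between the others. Whether it holds pooled tissue is not given in the sources used here, and the tumour differences of the genes named below as separated between groups are also given without it. Taf4a, as a whole gene, averaged 299.5 normalized counts in embryo KO against 226 in embryo WT, 494 in adult KO against 373 in adult WT, 201 in EPZ and 286 in 4-OHT organoids against 264 in control organoids, and Taf4 reached 13.4, 13.9 and 13.01 FPKM in Taf4KO-APC tumours against 11.3, 10.5 and 11.4 FPKM in APC tumours. A whole-gene sum does not see the loss of an exon, so it did not check the labels, by which the groups are named. In these bulk samples, fewer cells of a type and less RNA per cell cannot be told apart.

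What the mitochondrial genes could show depended on where they lie. On the mitochondrial chromosome of the NCBIM37 (mm9) mouse genome, the build used for the counts, bases 6394 to 11042 are repeated on the minus strand of chromosome 1 (24618374 to 24623023). The sequences below show how close the copy is. The first 100 bases of mt-Nd3, a core complex I subunit, differ from the copy by 1 substitution, T3C (mitochondrial base first, position counted from the first base of mt-Nd3), in capitals. In mt-Co1, the catalytic core of complex IV, the copied stretch starts inside the gene, and capitals mark the copied bases.
mt-Nd3, chrM:9459-9558, plus strand: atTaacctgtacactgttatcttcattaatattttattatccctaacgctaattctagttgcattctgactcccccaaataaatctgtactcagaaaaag
Copy, chr1:24619859-24619958, minus strand: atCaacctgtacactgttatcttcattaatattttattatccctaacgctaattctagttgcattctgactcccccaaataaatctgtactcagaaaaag
mt-Co1 edge, chrM:6354-6453, plus strand: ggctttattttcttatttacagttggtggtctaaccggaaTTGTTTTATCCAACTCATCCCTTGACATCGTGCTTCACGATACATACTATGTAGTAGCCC

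That substitution was the only one found in the 4649 mitochondrial bases. Those between the end of mt-Nd3 (9806) and the start of mt-Nd4l (9877) were not compared, and the copy is 4650 bases long. Counted in windows of 50 bases, 100% of mt-Co2, mt-Co3, mt-Atp6, mt-Atp8 and mt-Nd4l and 99.0% of mt-Nd3 had an exact copy elsewhere in the genome. These 6 genes averaged between 0 and 14.6 normalized counts in the 6 groups without EPZ and between 7.03 and 59.4 in EPZ organoids. The other 7 genes averaged between 18933 and 198918 normalized counts without EPZ and between 34000 and 272668 with it. Per kilobase, mt-Co1 had 60293 and mt-Co2 1.21 normalized counts in embryo KO, against 71573 and 5.55 in embryo WT, although both code for subunits of the same catalytic core. The methods kept reads that align to 1 place, and a read that lies wholly in the copied stretch has more than 1. The values of the 6 genes can therefore not be read as transcript levels, and those of mt-Nd4 (62.2% of windows copied) and mt-Co1 (51.1%) come from part of the gene. In mt-Nd2 and mt-Nd5 the share was 8.29% and 7.61%, and in mt-Nd1, mt-Nd6 and mt-Cytb no window was copied. In the tumours the same 6 genes had 46.7 to 480 FPKM, against 6903 to 12692 FPKM for mt-Co1.

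mt-Nd6, the only mitochondrial subunit gene on the minus strand, differed between the tables. Per kilobase it had 58576 normalized counts in embryo KO and 55219 in embryo WT, above mt-Nd5 on the opposite strand (16179 in embryo KO and 16106 in embryo WT). In tumours, mt-Nd6 had 17.6, 49.2 and 50.2 FPKM in Taf4KO-APC and 21.7, 19.4 and 29.2 FPKM in APC, far below mt-Nd5 (1448 to 1857 FPKM in Taf4KO-APC and 1880 to 2026 FPKM in APC). The labels name a stranded kit and the methods an amplified-cDNA kit, and whether strand was used in counting is not given in the sources used here. Reads of mt-Nd6 and of transcripts from the opposite strand can then not be told apart.

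In embryos, the nuclear subunit genes were lower in KO almost throughout, by a small amount, and the mitochondrial genes were not. Of the 82 nuclear genes that passed the filter, 76 were below embryo WT by any amount (46.7% of all 16484 genes were), and their median log2 difference was -0.31, against 0.04 over all genes. Among nuclear members with a mean of at least 1000, 64 of 65 were below embryo WT, with a median of -0.36, against 57.3% and -0.10 over all genes of that level. Past 1.5-fold, 6 members were lower, against 16.0% of all genes, and 1 was higher, against 9.12%. The share of members past the fold was thus below that of all genes, and what marked them was a common direction. Of the 8 mitochondrial genes that passed, 2 were below embryo WT and the median was 0.05. Without mt-Nd3, a gene of the copied stretch, 2 of 7 were below and the median was 0.04. Nuclear members made up 2.00% of the normalized counts in embryo KO and 2.43% in embryo WT, and mitochondrial members 2.62% in embryo KO and 2.48% in embryo WT. With groups scaled to equal totals, which adds 0.14 to every embryonic log2 value, 70 of 82 nuclear members stayed below embryo WT, against 36.2% of all genes, with a median of -0.18 against 0.18 over all genes.

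**Figure D1:**
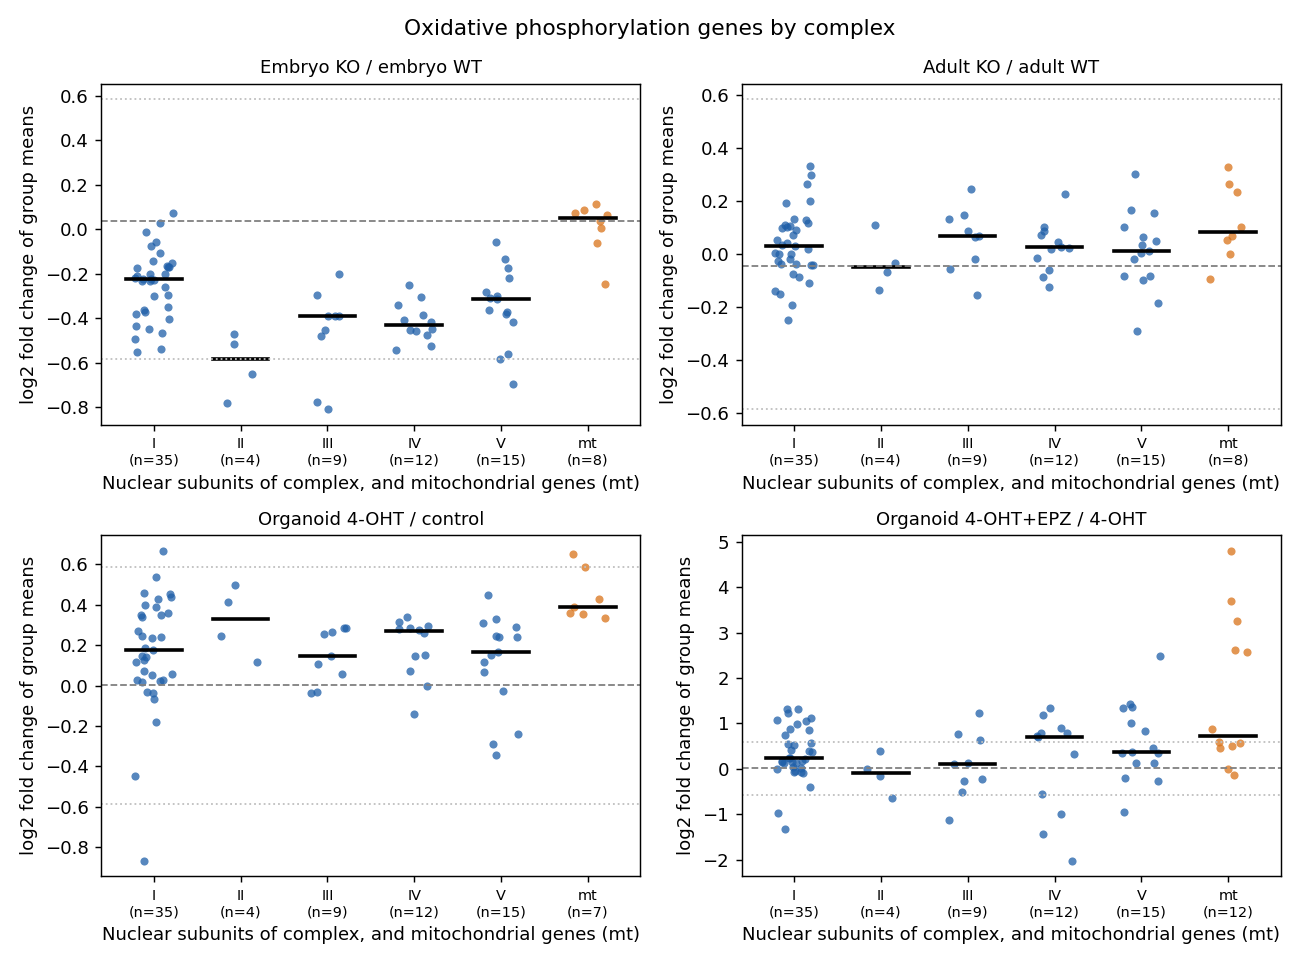
Log2 ratio of group means (vertical axis) of the common nuclear subunits by complex and of the mitochondrial genes (mt) in 4 comparisons; points are genes that passed the filter, bars are their medians, the dashed line is the median of all genes and dotted lines mark 1.5-fold. In embryos the nuclear genes of all 5 complexes centre below 0 (medians -0.22 to -0.59), while those of adults centre between -0.05 and 0.07.

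By complex, the median embryonic difference was -0.22 over the 35 nuclear genes of complex I, -0.59 over the 4 of complex II, -0.39 over the 9 of complex III, -0.43 over the 12 common genes of complex IV and -0.31 over the 15 of complex V. All nuclear genes of complexes II and III, the 12 common genes of complex IV and those of complex V were below embryo WT, as were 33 of 35 in complex I. The 2 exceptions were the accessory subunits Ndufa7, with 2827 normalized counts in embryo KO against 2690.2 in embryo WT, and Ndufb6, with 691 against 678. The groups are unequal in size, and their order was not tested.

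Complex II, which oxidizes succinate and is also an enzyme of the citrate cycle, had the largest median. Sdhd, one of its membrane anchors, averaged 2051 normalized counts in embryo KO against 3526 in embryo WT (log2 -0.78). Sdhb, the iron-sulfur subunit that hands on the electrons, had 2081 in embryo KO against 3272 in embryo WT (-0.65). The flavoprotein Sdha had 12438 against 17808 (-0.52) and the second anchor Sdhc 3122 against 4334 (-0.47), short of 1.5-fold. In complex III, Uqcrfs1, the Rieske iron-sulfur protein, had 1403 in embryo KO against 2459 in embryo WT (-0.81), and the small subunit Uqcrq had 3287 against 5635 (-0.78). The other 7, among them cytochrome c1 (Cyc1, 2712 in embryo KO against 3560.5 in embryo WT), lay between -0.48 and -0.20.

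In complex V, Atp5g3, one of the 3 genes for subunit c of the membrane rotor, had 5819 normalized counts in embryo KO against 9417 in embryo WT (-0.69). The other 2, which code for the same mature protein, were less reduced: Atp5g1 had 2827 in embryo KO against 3688 in embryo WT (-0.38) and Atp5g2 had 1391 against 1446 (-0.06). All windows of the Atp5g2 transcript have an exact copy elsewhere in mm9, so its value is uncertain. The catalytic β subunit Atp5b had 24961 in embryo KO against 37377 in embryo WT (-0.58), and the α subunit Atp5a1 had 19825 against 29267 (-0.56). Both lie just inside 1.5-fold. In complex IV, Cox4i1, the regulatory subunit IV of most tissues, had 7087 in embryo KO against 10322 in embryo WT (-0.54). In complex I, the iron-sulfur subunit Ndufs1, where electrons enter, had 651 in embryo KO against 946 in embryo WT (-0.54), and Ndufv1, which binds NADH, had 2721 against 3351 (-0.30). Among mitochondrial genes mt-Co1 had the largest difference, with 93153 in embryo KO against 110580.4 in embryo WT (-0.25).

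**Figure D2:**
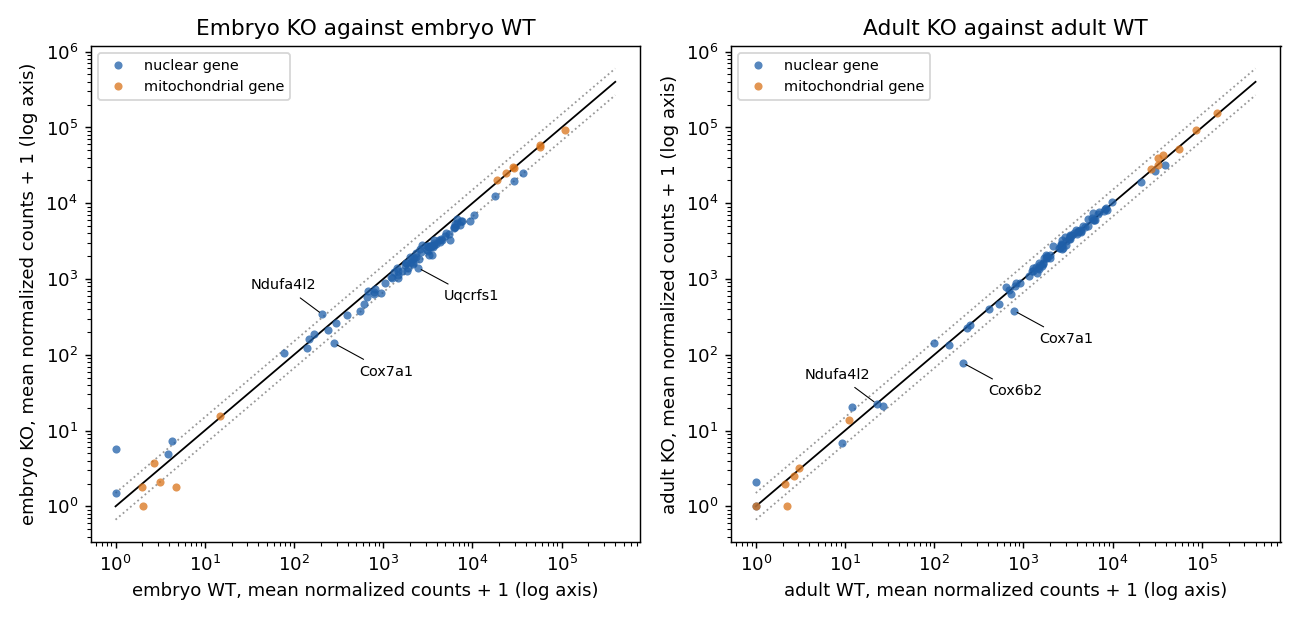
Mean normalized counts plus 1 of each member in KO (vertical axis) against WT (horizontal axis) for embryos and adults, both axes log; the solid line marks equality and dotted lines 1.5-fold. Most nuclear genes of the embryo lie just under the line of equality, and those of the adult lie on it; the 7 abundant mitochondrial genes stay near the line in both.

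Other mitochondrial gene groups in the embryo did not share one pattern. Of 17 citrate cycle genes, 16 were below embryo WT and 6 were lower past 1.5-fold (median -0.24). They included citrate synthase, Cs, with 1949 normalized counts in embryo KO against 3699 in embryo WT. Of 75 genes for mitochondrial ribosomal proteins, 31 were below embryo WT, none passed 1.5-fold in either direction, and the median was 0.03. Of 28 assembly factors of the respiratory complexes, 1 was lower and 1 higher (median -0.05). Of 20 genes for mitochondrial transcription and its regulators, 5 were lower and 1 higher. Esrra, an orphan nuclear receptor, had 2586 normalized counts in embryo KO against 5062 in embryo WT, Ppargc1a had 119.6 against 246, and Ppara, a receptor for fatty acids, had 309 against 686. Polg, the mitochondrial DNA polymerase, had 1802 against 3752. Nrf1 had 390.1 in embryo KO against 319.9 in embryo WT, Gabpa 781 against 835, Yy1 1058 against 979 and Tfam, which packages mitochondrial DNA, 1049 against 1115. Pprc1, a relative of Ppargc1a, was higher, with 3144 against 1812.

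Cell type markers moved in the same embryonic comparison. Of 11 enterocyte markers, 10 were lower in embryo KO (summed level 89092 in embryo KO against 285346 in embryo WT, median log2 -1.80), and 5 of 6 fibroblast markers were higher (172195 against 97296). Of 7 smooth muscle markers, 2 were higher and none lower. Of 6 genes listed for liver and brown fat, 3 passed the filter, and all 3 were lower in embryo KO. Alb had 7.73 normalized counts in embryo KO against 608 in embryo WT, Ttr 35.7 against 653 and Apoh 11.2 against 55.8. These genes are not specific to other organs here, since Ttr and Apoh were also counted in organoids, which hold epithelium alone. Ttr had 433 in 4-OHT and 853 in control organoids, Apoh 61.2 and 10.8, and Alb 3.69 and 7.53. The share of the subunit differences that goes with these cell types or organs was not tested.

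Promoter sequence was looked at because the nuclear genes moved together. Of 75 common nuclear subunit genes, 62 matched a RefSeq promoter in the GRCm38.p6 build, taken as 250 bases before to 50 bases after the start. The NRF1 motif GCGCANGCG was found in 30.6% of the 62, against 6.47% of all 27025 promoters. The GABPA motif CCGGAAG was found in 24.2% against 9.12%, the YY1 motif AAGATGGC in 12.9% against 2.88%, and the ESRRA motif TCAAGGTCA in 3.23% against 0.407%, all read on both strands. The TATA box TATAAA, read on the gene's strand only, was found in 3.23% of the 62 (Ndufa3 and Ndufs7) against 8.88% of all promoters. The median embryonic log2 difference was -0.23 with the NRF1 motif and -0.31 without it, and -0.36 with the GABPA motif and -0.30 without it. The 2 genes with the ESRRA motif were Sdhd and Atp5g3, both among the 6 members lower past 1.5-fold, though with equal totals Atp5g3 and Sdhb were no longer past it. Of those 6, Cox7a1 and Uqcrq were not among the 62 promoters searched. Whether ESRRA has a part in the differences was not tested. The promoters of Sdhd and Atp5g3 are shown with motif matches in capitals. Uqcrfs1, with the largest difference among the common subunits, had no match in this window and is shown beside them.
Sdhd, chr9:50603800-50604099, minus strand: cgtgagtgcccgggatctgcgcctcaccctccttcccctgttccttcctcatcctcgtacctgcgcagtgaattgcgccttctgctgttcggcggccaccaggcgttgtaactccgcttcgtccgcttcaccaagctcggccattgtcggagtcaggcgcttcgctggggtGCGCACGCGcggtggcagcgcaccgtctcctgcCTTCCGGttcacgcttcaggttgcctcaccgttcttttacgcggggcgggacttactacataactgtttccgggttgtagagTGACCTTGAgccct
Atp5g3, chr2:73911277-73911576, minus strand: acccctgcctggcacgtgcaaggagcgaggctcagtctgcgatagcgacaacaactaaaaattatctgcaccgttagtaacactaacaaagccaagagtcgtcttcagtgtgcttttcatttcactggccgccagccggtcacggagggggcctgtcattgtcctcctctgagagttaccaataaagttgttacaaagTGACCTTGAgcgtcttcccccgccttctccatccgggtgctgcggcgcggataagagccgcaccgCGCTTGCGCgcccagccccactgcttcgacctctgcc
Uqcrfs1, chr13:30545267-30545566, minus strand: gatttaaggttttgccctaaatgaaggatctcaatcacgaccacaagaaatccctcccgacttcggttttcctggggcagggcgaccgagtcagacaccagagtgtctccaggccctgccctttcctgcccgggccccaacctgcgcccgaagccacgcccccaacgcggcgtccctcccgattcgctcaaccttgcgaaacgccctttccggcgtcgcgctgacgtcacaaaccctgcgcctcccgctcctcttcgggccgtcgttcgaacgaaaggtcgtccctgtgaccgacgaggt

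In Sdhd the matches are NRF1, GABPA and ESRRA in the order of the sequence, the last 2 on the opposite strand, and in Atp5g3 they are ESRRA and NRF1, both on the opposite strand. A match describes letters only and is no evidence of binding.

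In adults, the nuclear subunit genes of KO and WT ileum were close. Of the 83 nuclear members that passed, 36 were below adult WT, with a median of 0.02, against 55.9% and -0.05 over all 16748 genes. Complex medians were 0.03, -0.05, 0.07, 0.03 and 0.01 for complexes I to V. Past 1.5-fold, 2 members were lower, against 13.3% of all genes, and 1 was higher, against 7.24%, and all 3 were complex IV paralogues. Sdhd had 2879 normalized counts in adult KO against 2666 in adult WT (0.11), Uqcrfs1 had 2542 against 2575 (-0.02) and Atp5g3 had 8064 against 8545 (-0.08). The catalytic complex V subunit Atp5b had 31863 in adult KO against 38987 in adult WT (-0.29), and Atp5a1 had 26584 against 30214.8 (-0.18). The iron-sulfur subunit Ndufs8 had 1202 against 1429.9 (-0.25). The accessory complex I subunits Ndufa7 and Ndufa6 lay above adult WT, Ndufa7 with 2695 in adult KO against 2138 in adult WT (0.33) and Ndufa6 with 3575 against 2903 (0.30), together with the δ subunit of complex V, Atp5d, with 7471 against 6055 (0.30).

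The 8 mitochondrial genes that passed in adults had a median of 0.08, and 1 of them, mt-Nd1, was below adult WT (52561 in adult KO against 56066 in adult WT, -0.09). Without mt-Nd3, a gene of the copied stretch, the median was 0.07. Mitochondrial members made up 3.01% of normalized counts in adult KO and 2.53% in adult WT, and nuclear members 2.17% in adult KO and 1.96% in adult WT. Equal totals add 0.17 to adult log2 values, and 7 of 83 nuclear members were then below adult WT, against 35.7% of all genes. Most enterocyte markers were lower in adult KO, 7 of 10 past 1.5-fold with a median of -1.45, and 1 was higher (Sis, sucrase-isomaltase, 25499.7 normalized counts in adult KO against 6267 in adult WT, 2.02), while 1 of 17 citrate cycle genes (Cs, 2808 in adult KO against 5123 in adult WT) and none of the 75 mitochondrial ribosomal genes or 28 assembly factors was lower. Of 20 genes for mitochondrial transcription and its regulators, 9 were below adult WT, 2 of them past 1.5-fold, and 0 were higher past it. Ppargc1a had 239 normalized counts in adult KO against 449 in adult WT (-0.90), and Esrra had 4837 against 6608 (-0.45). The embryonic and adult effects were not tested against each other, since neither has replicate values here.

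The normal adult ileum set against the normal embryonic intestine differed in few members. Past 1.5-fold, 2 were lower in adult WT, against 23.2% of all 17381 genes, and 4 were higher, against 26.3%. The nuclear median was 0.01 and the mitochondrial median 0.36, or 0.40 without mt-Nd3, a gene of the copied stretch. mt-Cytb, the only mitochondrial subunit of complex III, had 87069 normalized counts in adult WT against 56777 in embryo WT (0.62), and mt-Co1 had 148697 against 110580.4 (0.43). Ndufa1, an accessory complex I subunit, had 1678 in adult WT against 1057 in embryo WT (0.67). The other 4 called members were complex IV paralogues. The 2 sets differ in gut region and treatment as well as in age, and totals of 16583166 normalized counts in adult WT and 13117105 in embryo WT shift all log2 values by -0.34 when made equal. With equal totals, 13 members were lower and 1 was higher, and the nuclear median was -0.33.

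In each comparison of intestines, the lowest and the highest log2 values among members belonged to paralogues of complex IV, several of them at low counts. In adults and between stages the highest was Cox8b, whose low counts are given below. Among members with a mean of at least 100, the highest were Atp5s in adults (0.52), not a subunit, and Cox7a1 between stages (1.48). Cox7a1, the form of subunit VIIa known from heart and skeletal muscle, averaged 141 normalized counts in embryo KO against 279.5 in embryo WT (-0.98), and 381 in adult KO against 783 in adult WT (-1.04). It also differed with age, at 783 in adult WT against 279.5 in embryo WT (1.48). In organoids, which hold epithelium alone, it had 248 in EPZ, 317 in 4-OHT and 165 in control. Cox7a2, the form of most tissues, had 1856 in embryo KO against 2539 in embryo WT (-0.45) and 2716 in adult KO against 2670.3 in adult WT (0.02). Its relative Cox7a2l, which also bridges complexes III and IV, had 1276 in embryo KO against 1837 in embryo WT (-0.53) and 1366 in adult KO against 1487 in adult WT (-0.12). Cox7a2l shares 54.3% of its windows with other places in the genome.

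Cox6b2, the testis form of subunit VIb, had 77.4 normalized counts in adult KO against 208 in adult WT (-1.41), but 185 in embryo KO against 168 in embryo WT (0.14). It was between 0.69 and 3.84 in organoids. Ndufa4l2, a relative of Ndufa4 known to be induced by low oxygen, had 339.97 in embryo KO against 208 in embryo WT (0.71) and 21.5 in adult KO against 21.8 in adult WT. Its adult WT level was lower than in embryo WT (-3.19). Cox4i2, the form of subunit IV known from lung, had 104 in embryo KO against 77.2 in embryo WT (0.43) and 19.8 in adult KO against 25.6 in adult WT. In organoids, Ndufa4l2 was at 0.53 or below and Cox4i2 at 2.82 or below. Cox8b, a muscle form, had 19.8 normalized counts in adult KO against 10.9 in adult WT (0.80), and 4.69 in embryo KO against 0 in embryo WT. Cox6a2 and Cox7b2 stayed under 10 in all 4 mouse groups. Smooth muscle markers summed to 36107 normalized counts in adult KO, against 41763 in adult WT. Striated muscle markers summed to 162 in adult KO against 1006 in adult WT, and to 1309 in embryo KO against 1124 in embryo WT. Most of the adult difference was Acta1, with 16.4 in adult KO against 848 in adult WT. Acta1 was also counted in organoids, at 601 in 4-OHT and 156 in control. The part of muscle in the paralogue values was not tested.

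**Figure D3:**
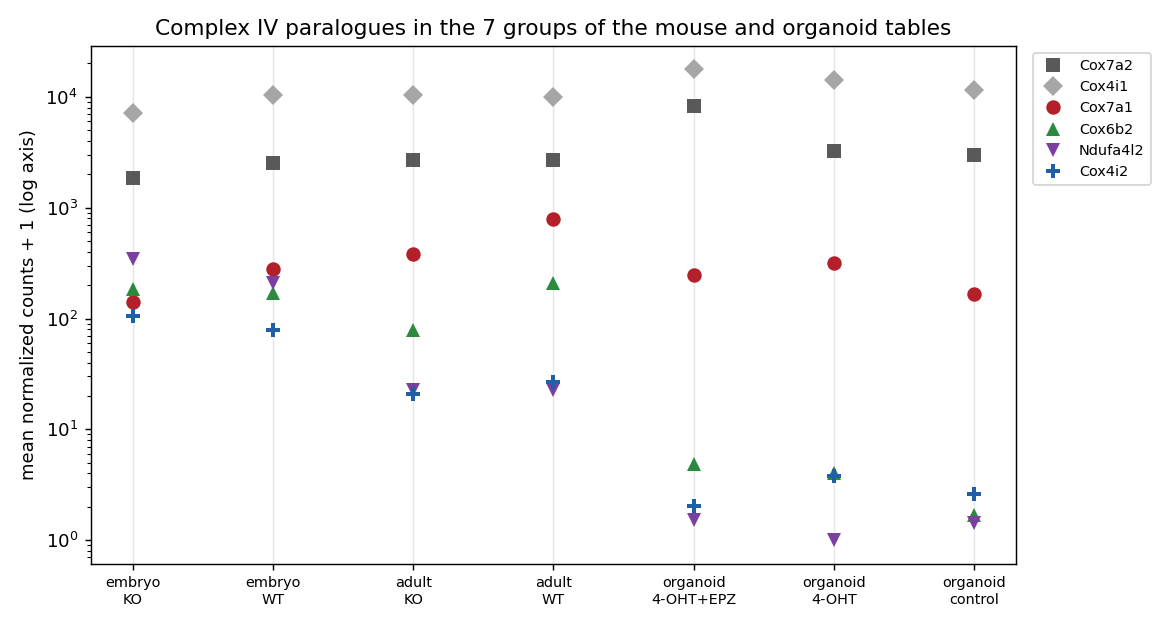
Mean normalized counts plus 1 (log axis) of complex IV paralogues in the 7 groups of the mouse and organoid tables, one symbol per gene. Cox7a1 is lower in KO than in WT at both stages, at 141 against 279.5 in embryos and 381 against 783 in adults, and Cox6b2, Cox4i2 and Ndufa4l2 are near 0 in organoids.

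In organoids treated with 4-OHT most members lay slightly above the control. Of the 79 nuclear members that passed, 15 were below control, with a median of 0.24, against 49.8% and 0.00 over all 13929 genes, and the 7 mitochondrial genes that passed were all above it, with a median of 0.39. Complex medians were 0.17, 0.33, 0.15, 0.27 and 0.17 for complexes I to V. Past 1.5-fold, 2 members were lower, against 21.0% of all genes, and 4 were higher, against 21.1%. Ndufs8, which carries iron-sulfur clusters of complex I, had 1093 normalized counts in 4-OHT against 1996 in control (-0.87), and Cox4nb, not a subunit, had 109.7 against 168 (-0.61). The accessory subunit Ndufa6 had 7337 in 4-OHT against 4622 in control (0.67). Cox7a1 had 317 against 165 (0.94), mt-Nd2 49169 against 31345 (0.65) and mt-Nd4, just past the threshold, 34273 against 22846 (0.59). Opposite to most, Atp5b had 37462 in 4-OHT against 47572 in control (-0.34) and Atp5a1 had 30583 against 36066 (-0.24). With equal totals, 29 of 79 nuclear members were below control, against 57.7% of all genes, and 1 member was higher past 1.5-fold.

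The same organoids differed in marker genes. Of 11 enterocyte markers, 10 were higher in 4-OHT (median log2 2.84), and all 6 genes of dividing cells were lower (-2.05). Among mitochondrial ribosomal genes, 5 of 75 were lower and none higher, with a median of -0.03, and of 28 assembly factors 1 was lower and 1 higher. Of 20 genes for mitochondrial transcription and its regulators, 4 were lower and 1 higher. Ppara had 700 normalized counts in 4-OHT against 164 in control (2.09). The lower ones were Esrrg, with 25.3 against 91.2 (-1.81), Pprc1, 2257 against 4540 (-1.01), Tfam, 952 against 1770 (-0.89), and Gabpa, 497 against 774 (-0.64). Esrra had 5467 normalized counts in 4-OHT against 5103 in control, and Ppargc1a had 103.7 against 131. The part of differentiation and division in the subunit values was not tested.

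With EPZ added to 4-OHT, members spread in both directions, in a way that split every complex except complex II. Past 1.5-fold, 8 members were lower, against 28.6% of all 14109 genes, and 32 were higher, against 28.0%. Of the 32, 6 were mitochondrial, and 5 of those were genes of the copied stretch. The nuclear median was 0.24, with a range of -2.03 to 2.48. Complex IV held the widest contrast. Cox5a had 796 normalized counts in EPZ against 3253 in 4-OHT (-2.03), Cox6a1 had 3274 against 8869 (-1.44) and Cox5b, with copies of 62.7% of its windows elsewhere, had 3483 against 6936 (-0.99). In the same complex, Cox7a2 had 8234 in EPZ against 3266 in 4-OHT (1.33) and Cox6c had 11651 against 5147 (1.18). These are nuclear subunits of 1 enzyme, and 3 of its 12 common genes were lower and 7 higher.

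In complex V, the 4 highest genes were Atp5l, Atp5k, Atp5j and Atp5g2. Atp5l (subunit g) had 7023 normalized counts in EPZ against 1258 in 4-OHT (2.48), Atp5k (subunit e) 11843 against 4392 (1.43), Atp5j (coupling factor 6) 12349 against 4774 (1.37) and Atp5g2 4720.2 against 1867 (1.34). Atp5l and Atp5g2 have copies of 89.4% and 100% of their windows elsewhere, so their values are uncertain. The δ subunit Atp5d was lower, with 4195 in EPZ against 8079 in 4-OHT (-0.95), and the catalytic subunits stayed near, Atp5b with 40631 against 37462 (0.12) and Atp5a1 with 39654 against 30583 (0.37). In complex I, Ndufs7, which passes electrons to ubiquinone, had 1067 in EPZ against 2660 in 4-OHT (-1.32), while Ndufs8, its neighbour in the complex, had 2732 against 1093 (1.32). Ndufa6 was lower, with 3714 in EPZ against 7337 in 4-OHT (-0.98), and Ndufb3 higher, with 3040 against 1287 (1.24). In complex III, Uqcrq had 4148 against 9034 (-1.12) and the hinge protein Uqcrh 21412 against 9157 (1.23). Against control organoids, whose values also enter the 4-OHT comparison, EPZ had 8 members lower (23.6% of all genes) and 43 higher (23.1%), with Cox5a at 796 in EPZ against 2653 in control (-1.74) and Atp5l at 7023 in EPZ against 921 in control (2.93). Of the 43, 33 were nuclear and 10 mitochondrial. Of those 10, 5 had a mean of at least 1000, and the rest were genes of the copied stretch.

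The EPZ differences ran with the base composition of the transcripts. Over 9450 protein-coding genes with a mean of at least 100, Spearman's rho between the log2 difference and transcript GC content was -0.40 for EPZ against 4-OHT and -0.47 over 9401 genes for EPZ against control, and 0.06 for 4-OHT against control, 0.03 in embryos and 0.04 in adults. Genes within a comparison share libraries and are not independent, so these values are descriptions. Over the 79 nuclear members, rho with GC was -0.38 for EPZ against 4-OHT. The 26 higher members had a median GC content of 49.3%, the 8 lower ones 55.6% and the 45 between them 53.3%, and copied windows exceeded 10% in 13 of the 26, 2 of the 8 and 10 of the 45. The EPZ libraries alone carry another extraction label in the series and came from longer cultures, so the drug, culture time and extraction cannot be told apart. Enterocyte markers were lower in all 11 cases (median -3.06), all 6 genes of dividing cells were higher (1.54), and of 75 mitochondrial ribosomal genes 38 were higher and 8 lower.

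In tumours no member passed the test. With limma on log2(FPKM + 1) and Benjamini-Hochberg adjustment over 13794 genes, 0 of the 93 members that averaged 1 FPKM or more in either group were lower and 0 higher at an adjusted p under 0.05, against 0.993% and 1.23% of all genes. At an unadjusted p under 0.05, 2 members were lower and 8 higher, against 7.12% and 20.7% of all genes. The nuclear median log2 difference was 0.07 over 80 genes, with 22 below 0, and the mitochondrial median was -0.16 over 13 genes, with 11 below 0, against 0.14 and 33.0% below 0 over all genes. The 13 include the genes of the copied stretch. Complex medians of the nuclear genes were 0.08, 0.08, 0.08, 0.04 and 0.02 for complexes I to V. Of the 93 members, 7 were lower in all 3 Taf4KO-APC libraries than in any APC library, against 8.50% of all genes, and 14 were higher, against 26.9%. The 7 were Cox7a1, mt-Co1, mt-Cytb, mt-Nd1, mt-Nd2, mt-Nd4 and mt-Nd5. The groups overlapped for mt-Nd6, which was low in tumours, with means of 39.0 FPKM in Taf4KO-APC and 23.4 FPKM in APC.

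mt-Co1 had 6903, 9433 and 7939 FPKM in Taf4KO-APC tumours, against 10858, 12692 and 9590 FPKM in APC tumours. The groups did not overlap, and the log2 difference was -0.45 ± 0.23 (SE, limma, adjusted p = 0.25). mt-Cytb had 3916, 4829 and 4285 FPKM in Taf4KO-APC, against 5560.2, 5993 and 5472 FPKM in APC, again without overlap (-0.39 ± 0.17, limma adjusted p = 0.20). For mt-Nd4 the values were 1076, 1283 and 1139 FPKM in Taf4KO-APC, against 1439.8, 1758 and 1429 FPKM in APC (-0.40 ± 0.15, limma adjusted p = 0.15). mt-Nd1, mt-Nd2 and mt-Nd5 showed the same separation with differences of -0.22, -0.31 and -0.27. Without the third Taf4KO-APC library the differences of mt-Co1, mt-Cytb and mt-Nd4 were -0.44, -0.38 and -0.39 (limma adjusted p = 0.47, 0.44 and 0.39), and those of mt-Nd1, mt-Nd2 and mt-Nd5 were -0.23, -0.27 and -0.19 (limma adjusted p = 0.62, 0.48 and 0.58). The 6 genes of the copied stretch, which have much lower values here too, overlapped between groups. Mitochondrial members made up 4.11, 4.90 and 4.27% of summed FPKM in Taf4KO-APC, against 5.18, 6.21 and 5.12% in APC, and nuclear members 2.77, 2.94 and 3.01% against 2.72, 2.76 and 2.63%. Among the 1922 genes that averaged 50 FPKM or more, 38.6% were below APC by any amount, 13.3% were lower in all 3 Taf4KO-APC libraries than in any APC library and 26.7% higher.

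**Figure D4:**
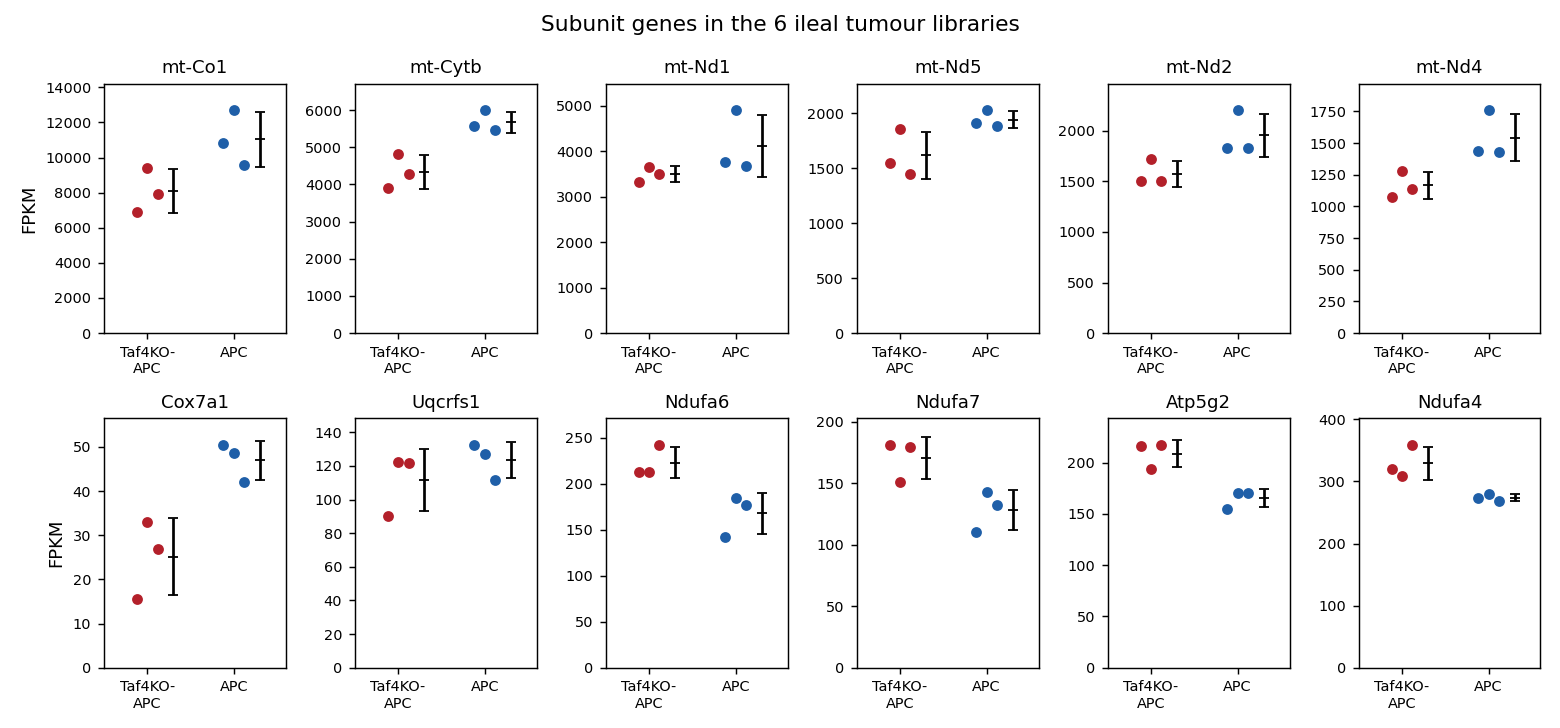
FPKM of 12 subunit genes in the 6 tumour libraries; points are libraries, and bars are the mean and SD of 3. The 6 mitochondrial genes of the upper row and Cox7a1 are lower in all Taf4KO-APC libraries than in any APC library, Uqcrfs1 overlaps, and Ndufa6, Ndufa7, Atp5g2 and Ndufa4 are higher.

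Cox7a1 had 15.7, 33.1 and 26.9 FPKM in Taf4KO-APC tumours, against 50.4, 48.6 and 42.0 FPKM in APC tumours, with means of 25.2 ± 8.82 and 47.0 ± 4.44 FPKM (SD, n = 3 each). The groups did not overlap, and the difference of -0.93 ± 0.26 missed the threshold (limma adjusted p = 0.099, and 0.31 without the third Taf4KO-APC library, where it was -1.01). Smooth muscle markers summed to 116, 180.5 and 153 FPKM in Taf4KO-APC, against 522, 418 and 183 FPKM in APC, and enterocyte markers to 1663, 7111 and 4334 FPKM against 4848, 12757 and 6664 FPKM. Immune markers summed to 281, 427 and 381 FPKM in Taf4KO-APC, against 1589, 663 and 531 FPKM in APC. Their part in these values was not tested.

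The 14 members that were higher in all Taf4KO-APC libraries, a smaller share than the 26.9% of all genes, were 10 nuclear genes of complex I, 2 of complex IV and 2 of complex V. Ndufa6 had 213, 213 and 242 FPKM in Taf4KO-APC, against 142, 185 and 176 FPKM in APC (0.41 ± 0.13, limma adjusted p = 0.11). Ndufa7 had 181, 151 and 179 FPKM in Taf4KO-APC, against 110.1, 143 and 132 FPKM in APC (0.41 ± 0.13, limma adjusted p = 0.12). Atp5g2 had 216, 193 and 217 FPKM against 155, 170.4 and 170.6 FPKM (0.33 ± 0.09, limma adjusted p = 0.098), and Ndufa4 had 321, 308 and 359 FPKM against 273, 280.01 and 269 FPKM (0.26 ± 0.10, limma adjusted p = 0.15). None of these 4 genes passed the test. Without the third Taf4KO-APC library the differences of Ndufa6, Ndufa7, Atp5g2 and Ndufa4 were 0.35, 0.37, 0.31 and 0.20 (limma adjusted p = 0.36, 0.36, 0.34 and 0.42). Uqcrfs1 and Sdhd, lower past 1.5-fold in embryos, overlapped in tumours. Uqcrfs1 had 90.1, 122 and 122 FPKM in Taf4KO-APC and 132, 127 and 112 FPKM in APC. Sdhd had 148, 190.2 and 177 FPKM in Taf4KO-APC and 170.03, 158 and 137 FPKM in APC. Of 78 mitochondrial ribosomal genes, 1 was higher, Mrpl2, with a log2 difference of 0.61 (limma adjusted p = 0.044, and 0.26 without the third Taf4KO-APC library), and 0 were lower, and of 29 assembly factors and 17 citrate cycle genes 0 passed in either direction.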

How the data were processed

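The authors trimmed reads with cutadapt 1.10, removed rRNA reads with Bowtie2 2.2.8, aligned to mm9 with STAR 2.5.3a and counted genes with HTSeq, per the labels and methods. For intestine and organoids they deposited the mean signal per group, that is, counts normalized by DESeq2's median of ratios, beside log2 fold changes and p-values of their own comparisons, which were not used. For tumours they deposited FPKM per library, with mm9 and mm10 both listed. Ratios of group means used a pseudocount of 1, a minimum mean of 10 and a threshold of 1.5-fold. Tumours were tested with limma 3.58.1 in R 4.3.3 (trend, two-sided, pseudocount of 1, minimum mean of 1 FPKM), which was tested on simulated data. Depth was derived from FPKM steps. Nothing says that replicates came from separate litters, so p-values measure the spread between libraries. Named genes were the 4 highest and 4 lowest members per comparison with a mean of at least 100 (tumours: 5 FPKM), the mitochondrial genes, the paralogues and the core subunits; the remaining ones named were chosen after their values were seen. Members and lists were chosen with earlier results of these data known. Windows of 50 bases were matched to NCBIM37. Python 3.11.15, numpy 2.4.6, pandas 2.3.3 and matplotlib 3.10.9 were used.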

Additional observations from a re-analysis of the deposited data

How the results depend on the processing

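Group means carried no replicate spread, and counts of members past a fold followed the threshold. Scaling groups to equal totals shifted log2 values by 0.14 in embryos, 0.17 in adults and -0.34 between stages. The shifts were -0.12 for 4-OHT, -0.09 for EPZ against 4-OHT and -0.21 for EPZ against control. With totals taken without mitochondrial genes they were 0.14, 0.18, -0.34, -0.11, -0.07 and -0.18 in the same order. Either scaling gave 2 higher members in adults (1 as reported) and 13 lower and 1 higher between stages (2 and 4). For 4-OHT, 1 was then higher (4), and in embryos 4 were lower (6). With mitochondrial genes in the totals, 10 were lower for EPZ against 4-OHT (8) and 33 higher for EPZ against control (43). The nuclear median between stages turned to -0.33. At 2-fold, embryos had 0 lower and 0 higher (6 and 1 at 1.5-fold), adults 0 higher, stages 2 higher, 4-OHT 0 lower and 0 higher, EPZ against 4-OHT 4 lower and 19 higher (8 and 32), and EPZ against control 3 lower and 26 higher (8 and 43). With no filter there were 4 higher in embryos, 2 higher in adults, 5 lower between stages and 7 higher for 4-OHT. A pseudocount of 10 gave 0 higher in adults and 1 lower for 4-OHT. A minimum of 100 gave 0 higher in adults and 1 lower between stages. A minimum of 1000, chosen after seeing the data, gave 0 higher in embryos, 0 lower and 0 higher in adults, 0 lower and 2 higher between stages, and 1 lower for 4-OHT. In tumours the counts were 0 under every alternative run, with 0 to 0 when each library was left out in turn. Tests on whole reads (edgeR, DESeq2) were not run on FPKM. Same-numbered tumour libraries did not deviate together (correlations -0.17, -0.20 and -0.04). With 3 libraries per group this check cannot exclude that the numbers pair them. With the replicate block 0 members were lower and 0 higher. Among differences near 0, Sdha turned to -0.0093 after centring on library medians, and with each library left out in turn Atp5a1 ranged between -0.068 and 0.059 and Atp5b between -0.069 and 0.022; the cause was not tested.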
